A study of Mus musculus with 15 samples.

Results

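The genes of the voltage-gated ion channel families were followed across single cells of the mouse cerebellum and of SHH-driven medulloblastoma. A gene was taken when its symbol belonged to the potassium channel (Kcn), sodium channel (Scn) or calcium channel (Cacn) families and it had at least 50 UMIs over all 15 libraries. A UMI, or unique molecular identifier, stands for 1 captured mRNA molecule. Of 27803 gene symbols in the tables, 128 matched the family names, 88 reached the minimum and 40 did not. The rule also took in the inward rectifier, leak and calcium-activated potassium channels, auxiliary subunits and the TARP proteins, not all of which sense voltage. Just inside the minimum were Kcna2 with 53, Kcns1 with 56 and Kcna4 with 59 UMIs, and just outside it were Kcnh4 with 38, Cacna1i with 36 and Kcnc2 with 34.

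Voltage-gated channels open when the membrane potential changes and let sodium, calcium or potassium ions through. In neurons, sodium channels start the action potential, potassium channels end it and set the firing rate, and calcium channels link it to transmitter release and to signalling in the nucleus. Cerebellar granule neuron progenitors (CGNPs) divide in the external granule layer in response to Sonic hedgehog (SHH), leave the cell cycle, migrate inward and become cerebellar granule neurons (CGNs). A CGN acquires fast potassium currents as it matures. SHH-driven medulloblastoma arises from CGNPs in which the pathway stays on.

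Drop-seq, in which each cell shares a droplet with a barcoded bead, was used on 5 cerebella of WT C57BL/6 mice taken at P7 and on medulloblastomas of 10 M-Smo mice taken at P15. M-Smo mice were Math1-Cre:SmoM2/EYFP loxP/loxP, so that Cre under a cloned Atoh1 promoter switched on SmoM2, a constitutively active form of SMO, in CGNPs and other cells of the Math1 lineage. All 10 tumor mice carried these alleles. Between P12 and P14, 5 of them received 3 daily doses of vehicle and 5 received 3 daily doses of 75 mg/kg of vismodegib, an inhibitor of SMO. WT mice were untreated, younger and without the transgenes, and their cells were captured on a PDMS device in place of the glass device and human spike-in used for tumors, so that age, genotype and capture cannot be told apart in any comparison with WT. Each library came from 1 animal.

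Libraries held 2310474 to 5952919 UMIs in WT cerebella, 4307404 to 17708677 in vehicle-treated tumors and 2601001 to 10922460 in vismodegib-treated tumors. After the filters on depth, 7224 WT cells, 18293 cells of vehicle-treated tumors and 12429 cells of vismodegib-treated tumors were kept, with animal medians of 1082.5 to 2597 UMIs per cell. Over the 105 pairs of libraries, at most 13 cell barcodes were shared, with a median of 1. Cells were clustered without the 88 channel genes and were named from marker lists. The CGNP lineage-like cells made up 66.0 to 73.0% of cells in WT cerebella, 89.2 to 94.1% in vehicle-treated and 79.7 to 87.5% in vismodegib-treated tumors. They were divided into cycling CGNP-like cells (Mki67, Top2a), early CGNP-like cells (Gli1, Atoh1), differentiating CGNP-like cells (Cntn2, Nhlh1) and late CGN-like cells (Grin2b, Rbfox3). The unnamed tumor cluster of 1405 cells, with a median of 891 UMIs per cell, went into no class. The tumors fell into a division found earlier in these data, of vehicle replicates 1 and 3 and vismodegib replicates 1 to 3 against the others. The level of a gene is in CPM, counts per 1000000 UMIs summed over the cells of that class in 1 animal, and is written as mean ± SD with n = 5 animals unless stated. In summed cells, fewer expressing cells and less mRNA per cell cannot be told apart.

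Each channel family was present, and 84 to 88 of the 88 members were detected in each library. Of the voltage-gated sodium channel alpha subunits, 5 of 9 symbols were members, led by Scn8a with 7785 UMIs. The sodium channel beta subunits had 3 of 4, led by Scn3b with 1234 UMIs. Voltage-gated potassium channel alpha subunits made up the largest subfamily with 24 of 39 symbols, led by Kcnc1 with 7386 UMIs, and 11 of 12 auxiliary potassium channel subunits were led by Kcnip3 with 6329. Calcium- or sodium-activated potassium channels gave 9 of 12, led by Kcnmb4 with 2739 UMIs, inward rectifiers 9 of 14, led by Kcnj3 with 4974, and leak channels 7 of 11, led by Kcnk1 with 14682. Among calcium channels, 7 of 10 alpha1 subunits were led by Cacna1b with 5361 UMIs, 3 of 4 alpha2delta subunits by Cacna2d1 with 23668, 4 of 4 beta subunits by Cacnb4 with 3071, and 6 of 8 gamma subunits and TARPs by Cacng2 with 19957. These totals are not corrected for transcript length and do not rank the channels by transcript number. The remaining symbol, Kcnrg, was in none of these subfamilies and stayed below the minimum with 29 UMIs. All 88 members were in the GENCODE M21 annotation of GRCm38. Exons of 31 members lay opposite those of another gene and exons of 2, Cacng8 and Kcnab2, overlapped another gene on the same strand, so their counts are less certain. Scn2a, an abundant neuronal sodium channel, was listed under its older symbol Scn2a1 and was outside the rule.

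The first question was how channel transcripts change along the granule lineage. In all 3 groups their share of the UMIs was higher in late CGN-like cells than in cycling CGNP-like cells. CPM is such a share and not a number of UMIs per cell. Late cells held fewer UMIs per cell, at 1251989 UMIs over 980 cells in WT against 3450293 over 872 cycling cells. The totals were 1111549 over 692 and 14779058 over 4846 under vehicle, and 7715935 over 3947 and 7342429 over 1956 under vismodegib. Channel UMIs per cell were not compared. The summed level of the 88 members was 1088 ± 103 CPM in cycling and 3175 ± 410 CPM in late cells of WT cerebella. It was 1417 ± 252 and 4338 ± 639 CPM in vehicle-treated tumors, and 1470 ± 102 and 4504 ± 474 CPM in vismodegib-treated tumors. In each group, every animal's late cells were above every animal's cycling cells. Because the stages were made from the same cells, these levels are a description with no test, and the count of genes whose animals did not overlap is read beside the share of all genes that did the same.

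Of the 19 members with at least 200 UMIs in the WT lineage, 11 were higher in the late cells of every WT animal than in the cycling cells of any, 1 was lower and 7 overlapped, where 27.1% of all such genes did not overlap (13.2% late higher, 13.9% late lower). In vehicle-treated tumors, 22 of 45 members were higher and 7 lower, against 31.3% of all genes (14.5% higher, 16.8% lower). In vismodegib-treated tumors 29 of 38 were higher and 2 lower, against 42.0% of all genes (21.7% higher, 20.3% lower). In each group the late-higher share of members was above that of all genes and the late-lower share was below or near it. Among the 19 members that had at least 200 UMIs in all 3 groups, 9 were higher in late cells in every group, among them Cacna2d1, Cacng4, Kcna1, Kcnc1, Kcnd2, Kcnj3, Kcnk1 and Kcnk2. Kcne1l was lower in every group, and no member changed direction. The share of all genes that did not overlap in all 3 groups was not counted, and nothing is read from these counts.

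In WT cerebella the sodium channel Scn8a, which carries much of the repetitive firing of cerebellar neurons, went from 39.2 ± 8.60 CPM in cycling to 133 ± 15.8 CPM in late cells, a 3.39-fold higher level. The steepest courses were those of potassium channels. Kcna1, a delayed rectifier of axons, was at 11.2 ± 4.12 CPM in cycling, 10.5 in early, 84.0 in differentiating and 172 ± 99.2 CPM in late cells. In the late cells its values in the 5 WT animals were 112, 146, 85.4, 176 and 338 CPM, and in the cycling cells 6.33, 12.4, 17.3, 8.78 and 11.4 CPM. The ranges did not overlap and the means differed 15.3-fold, although 1 animal was far above the others in late cells. Kcnd2, an A-type channel of granule neuron dendrites, was at 15.6 ± 7.2, 13.8, 52.7 and 183 ± 18.3 CPM over the 4 stages, or 11.7-fold higher in late than in cycling cells. Its late values lay between 154 and 203 CPM, a narrow range beside that of Kcna1.

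The other potassium channels with a late rise in WT were leak channels, fast rectifiers and inward rectifiers. The leak channel Kcnk2 went from 9.79 ± 3.84 to 102 ± 48.6 CPM (10.4-fold) and Kcnk1 from 103 ± 15.5 to 344 ± 58.2 CPM (3.33-fold). Kcnc1, which ends action potentials quickly in fast-firing neurons, went from 36.8 ± 11.8 to 206 ± 34.3 CPM (5.60-fold). The G protein-gated inward rectifiers Kcnj6 and Kcnj3 were 3.22-fold and 2.52-fold higher in late cells. Kcne1l, an auxiliary potassium channel subunit, ran the other way. Its level was 46.5 ± 13.2 CPM in cycling, 52.0 in early, 19.9 in differentiating and 13.8 ± 10.7 CPM in late cells, and its lowest cycling value of 30.2 CPM lay just above its highest late value of 29.9 CPM. Among calcium channel genes, the TARP Cacng4, a partner of AMPA receptors, was 3.31-fold higher in late cells. Cacna2d1, the alpha2delta subunit that binds gabapentin, was 2.33-fold higher, with overlapping values in differentiating and late cells.

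**Figure D1:**
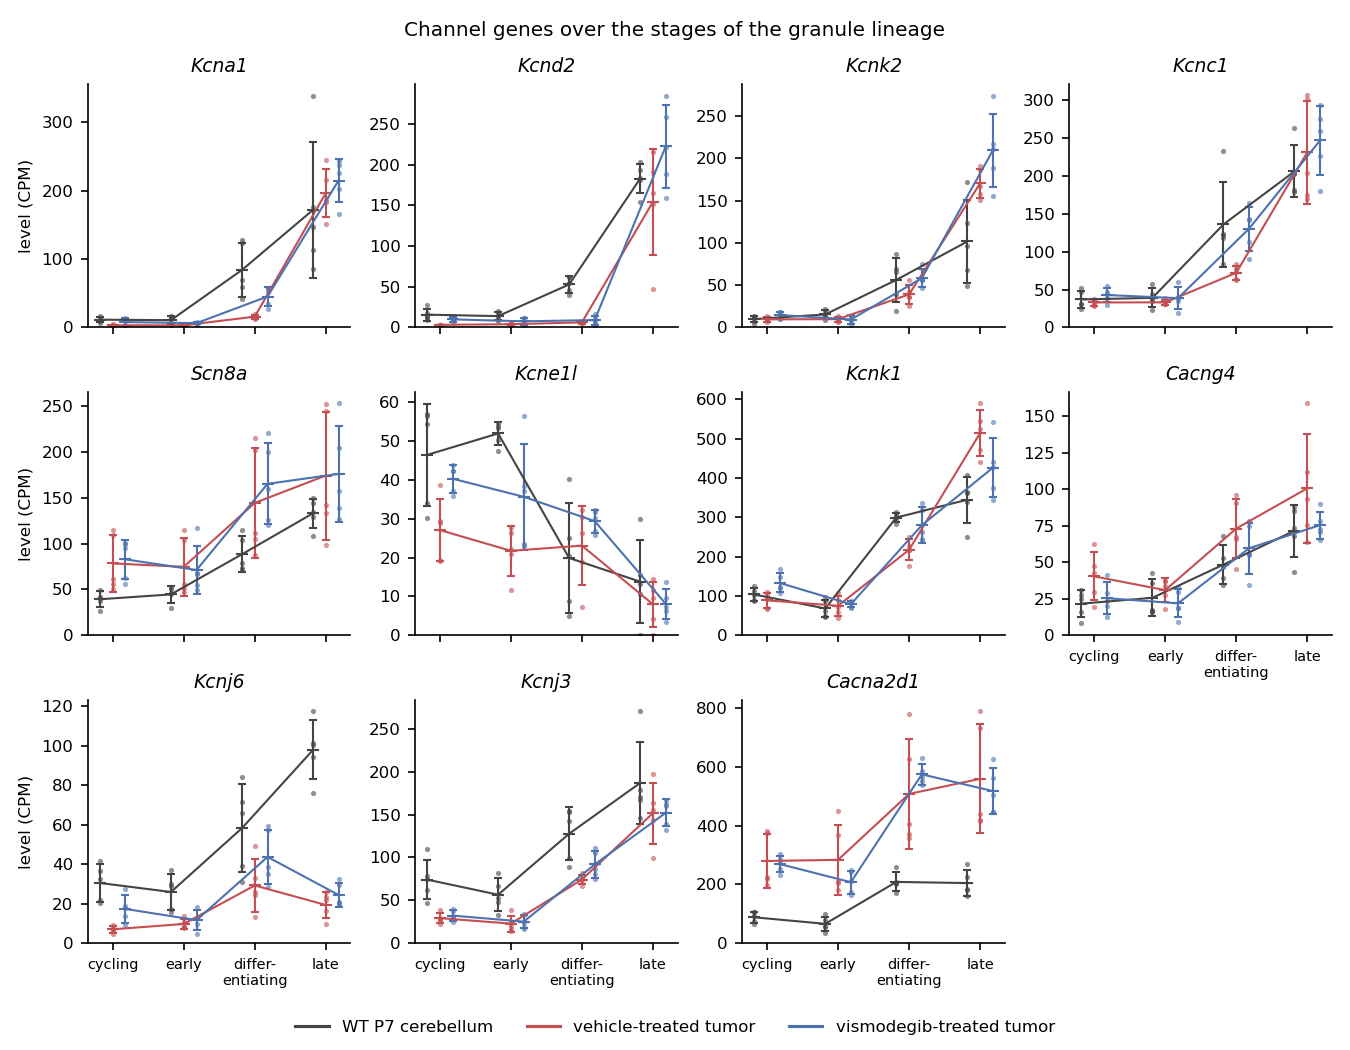
Levels of 11 channel genes in the 4 stages of the CGNP lineage, in CPM on the vertical axis. Dots are animals, colours are the 3 groups and bars are mean ± SD. Kcna1 and Kcnd2 were 15.3-fold and 11.7-fold higher in late than in cycling cells of WT cerebella, whereas Kcne1l was 3.37-fold lower.

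In vehicle-treated tumors, Kcna1 was 64.3-fold and Kcnd2 49.1-fold higher in late than in cycling cells, followed by Cacna1e (29.4-fold), Scn3a (18.6-fold), Kcnk2 (18.0-fold), Kcnd3 (12.5-fold) and Cacnb4 (11.2-fold). Cacna1e forms R-type calcium channels, Scn3a is a sodium channel of immature neurons, and Cacnb4 is a beta subunit that brings calcium channels to the membrane. In vismodegib-treated tumors the leading genes were Cacna1g (33.3-fold), Kcna1 (28.0-fold), the alpha2delta gene Cacna2d2 (26.4-fold), Kcnd2 (22.7-fold), Cacna2d3 (16.2-fold), Cacna1e (15.2-fold) and Kcnk2 (14.4-fold). Cacna1g forms low-threshold T-type calcium channels.

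The 7 members that were lower in late than in cycling cells of vehicle-treated tumors were Cacng5, Cacng3, Kcnh5, Kcng2, Kcnj8, Kcnn4 and Kcne1l. The late cells of these tumors held 1111549 UMIs in all, so counts there were low. Cacng5, a TARP, had 411 UMIs in cycling and 1 in late cells, a ratio of 30.9 with a 95% counting interval of 5.52 to 1220. The TARP Cacng3 had 183 and 1 UMIs (ratio 13.8, 2.44 to 547), and Kcnh5, a voltage-gated potassium channel of the ether-à-go-go family, had 135 and 1 (ratio 10.2, 1.79 to 404). No UMI of the other genes but Kcne1l was seen in late cells. With 3 UMIs over the group as the floor, Kcng2 was at least 4.91-fold, Kcnj8 at least 3.03-fold and Kcnn4 at least 2.58-fold lower in late cells. These intervals and floors cover counting error only. Kcng2 is a silent subunit that modifies other potassium channels, Kcnj8 a subunit of ATP-sensitive potassium channels and Kcnn4 a calcium-activated potassium channel of non-neuronal and dividing cells.

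The second question was which channel genes differed between vismodegib-treated and vehicle-treated tumors within a stage. UMIs were summed per animal and stage and were tested by the quasi-likelihood method of edgeR. The p-values were adjusted by Benjamini-Hochberg over all genes tested, and genes were called at an adjusted p under 0.05. In cycling CGNP-like cells 6 of 35 tested members were called, 3 higher and 3 lower under vismodegib, where 2.38% of all genes were called (0.801% higher, 1.58% lower). In early CGNP-like cells 3 of 23 were called, 1 higher and 2 lower, against 3.74% of all genes (1.43% higher, 2.3% lower). In differentiating CGNP-like cells 2 of 36 were called, both higher, against 1.66% (0.726% higher, 0.932% lower), and in late CGN-like cells 0 of 32, against 0.0518%. The called members of the progenitor stages were Cacng3, Cacng5 and Kcnh7, which fell, and Kcnip3, Kcnd2 and Kcnj6, which rose. Those of the differentiating stage, Kcna1 and Kcnc1, both rose.

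The start regions of 2 of the genes that fell, Cacng5 and Kcnh7, are printed below because these members fell under vismodegib in both cycling and early cells. Each is the 250 bases before a RefSeq start on GRCm38.p6, of which Kcnh7 has 1 in the table and Cacng5 has 2, with the upstream one shown. The window of Cacng5 lies at chr11:107915056-107915305 on the minus strand and that of Kcnh7 at chr2:63184288-63184537 on the minus strand, written 5′ to 3′ with no motif in capitals.
Cacng5: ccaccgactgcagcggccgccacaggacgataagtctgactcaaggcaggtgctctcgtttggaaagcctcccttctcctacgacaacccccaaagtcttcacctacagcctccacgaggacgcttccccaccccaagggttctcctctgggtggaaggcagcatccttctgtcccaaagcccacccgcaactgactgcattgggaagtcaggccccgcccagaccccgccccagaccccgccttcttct
Kcnh7: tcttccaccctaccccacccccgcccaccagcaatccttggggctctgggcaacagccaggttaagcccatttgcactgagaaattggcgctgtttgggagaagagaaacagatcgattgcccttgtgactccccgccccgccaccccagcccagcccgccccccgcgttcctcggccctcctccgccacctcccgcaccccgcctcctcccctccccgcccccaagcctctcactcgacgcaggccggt
The window of Cacng3, chr7:122671494-122671743 on the plus strand, is not printed because GENCODE M21 starts that gene earlier, at base 122670492. The windows were 62.0% GC for Cacng5, 67.6% for Kcnh7 and 56.8% for Cacng3, and the median was 52.67% over 32851 RefSeq start windows and 60.33% over the 95 windows of members. Start windows of 300 bases, which add 50 bases after the start, were searched on both strands for 4 sets of letters, and 65 of the 88 members had such a window. The GLI core GACCACCCA was in 0.253% of all windows and in 1 of the 95 windows of members, that of Cacnb4. A part of the REST element, TTCAGCACC, was in 0.371% of all windows and in 1 window of a member, Kcnh6. The E-box CAGCTG was in 16.3% of all windows and in 28.4% of those of members (27 of 95), Cacng3 among them. The E-box CAGATG was in 17.2% of all windows and in 18.9% of those of members (18 of 95). A match to these letters is a description of sequence and not a binding site.

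Cacng3, which encodes a TARP that traffics AMPA receptors, was at 14.8, 18.1, 10.2, 10.9 and 10.6 CPM in the cycling cells of the 5 vehicle-treated tumors and at 0, 2.71, 0, 1.15 and 0 CPM in those of the vismodegib-treated tumors. The groups did not overlap, and the log2 fold change was -3.88 ± 0.55 (SE, adjusted p = 0.00128). With every animal thinned to the smallest sum of UMIs, Cacng3 was not among the genes tested. In early cells it had 99 UMIs over the vehicle-treated and no UMI over the vismodegib-treated tumors, and it was not among the genes tested there. In WT cycling cells it was at 0 to 1.25 CPM.

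Cacng5, a relative of Cacng3, was at 61.4, 13.5, 21, 11.4 and 33.8 CPM in cycling cells under vehicle and at 4.45, 0.903, 1.25, 4.21 and 4.2 CPM under vismodegib (log2 fold change -3.04 ± 0.51, adjusted p = 0.00404). In early cells it was at 57.6, 24, 52.7, 25.4 and 51.6 CPM under vehicle and at 1.95, 1.31, 0, 4.6 and 3.12 CPM under vismodegib (log2 fold change -4.00 ± 0.45, adjusted p = 0.000151). No treated tumor reached the lowest vehicle-treated tumor in either stage. With sums thinned in the same way, Cacng5 was not tested in either stage. WT animals were at 1.25 to 4.32 CPM in cycling and at 2.45 to 8.56 CPM in early cells. In late cells of the same vehicle-treated tumors Cacng5 had 1 UMI and a level of 0.72 CPM.

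Kcnh7, an ether-à-go-go-related potassium channel, was at 52.9, 31.2, 34.8, 16.9 and 30 CPM in cycling cells under vehicle and at 13.3, 14.4, 8.72, 12.2 and 12.1 CPM under vismodegib (log2 fold change -1.41 ± 0.26, adjusted p = 0.00822). In early cells the values were 58.2, 38.6, 56.3, 20.8 and 52 CPM under vehicle and 7.81, 11.8, 16.4, 9.2 and 8.31 CPM under vismodegib (log2 fold change -2.10 ± 0.31, adjusted p = 0.00132). The groups did not overlap in either stage, and vehicle replicate 4 was the lowest of its group in both. In differentiating and late cells the log2 fold changes of Kcnh7 were -0.12 and -0.28, with adjusted p = 0.887 and 0.98. Exons of Gca lie opposite those of Kcnh7, and the sources used here do not say whether counting used the strand.

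Kcnip3, a calcium-binding subunit of A-type potassium channels that is also known as a transcriptional repressor, rose within narrow ranges. In cycling cells it was at 59.9, 62, 61.2, 61.1 and 57.1 CPM under vehicle and at 94.9, 104, 107, 112 and 120 CPM under vismodegib (log2 fold change 0.84 ± 0.13, adjusted p = 0.00197). In early cells the values were 59.3, 54.6, 70.6, 58.5 and 45.3 CPM against 104, 113, 105, 97.7 and 111 CPM (log2 fold change 0.91 ± 0.15, adjusted p = 0.00313). With every animal thinned to the smallest sum of UMIs, the early difference was 0.70 and was no longer called (adjusted p = 0.0648). All 5 treated tumors were above all 5 vehicle-treated tumors in both stages. In differentiating and late cells the log2 fold changes were 0.12 and 0.19 (adjusted p = 0.797 and 0.976).

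Kcnd2 and Kcnj6 rose in cycling cells. Kcnd2 was at 3.11, 2.83, 3, 3.48 and 3.29 CPM under vehicle and at 5.93, 9.93, 8.72, 9.95 and 14.5 CPM under vismodegib (log2 fold change 1.67 ± 0.31, adjusted p = 0.00688). The treated values overlapped those of WT cycling cells, which lay between 8.63 and 27.3 CPM. Kcnd2 was not among the genes tested with a finer clustering, with thinned sums, or without vismodegib replicate 4 or 5. Its place in the test thus hung on the treated tumors, where it was high. The call was kept under each alternative that tested it. Kcnj6 was at 4.67 to 9.21 CPM under vehicle and at 8.9 to 27.4 CPM under vismodegib (log2 fold change 1.29 ± 0.31, adjusted p = 0.0358). The Kcnj6 call was lost without vehicle replicate 1, 3, 4 or 5 and without vismodegib replicate 3, 4 or 5, each left out in turn (adjusted p = 0.055 to 0.111).

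In differentiating cells Kcna1 was at 12.2, 16.8, 13.6, 19.4 and 16.2 CPM under vehicle and at 26.9, 56, 34.3, 57 and 51.4 CPM under vismodegib (log2 fold change 1.55 ± 0.25, adjusted p = 0.0031). Every treated tumor was above every vehicle-treated tumor, but with sums thinned to the smallest the difference was 1.16 (adjusted p = 0.0862). Kcnc1 was at 62.3 to 84.1 CPM under vehicle and at 90.2 to 165 CPM under vismodegib (log2 fold change 0.88 ± 0.18, adjusted p = 0.0167). The groups did not overlap, but without vismodegib replicate 4 the adjusted p was 0.0587, and with a finer clustering it was 0.0505. The differentiating cells came from 3 clusters that held 46.9, 35.5 and 17.6% of them under vehicle and 23.1, 32.8 and 44.1% under vismodegib. The first was named on a mean marker difference of only 0.23 on the log2 scale, and at the finer clustering 1347 differentiating cells under vehicle and 329 under vismodegib were early CGNP-like. Within each of the 3 clusters the Kcna1 levels of the treatments overlapped, at 0 to 4.43 against 0 to 22.8 CPM, 0 to 13.4 against 0 to 25.8 CPM, and 44.5 to 75.5 against 62.6 to 119 CPM. The Kcnc1 levels overlapped within each cluster as well.

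**Figure D2:**
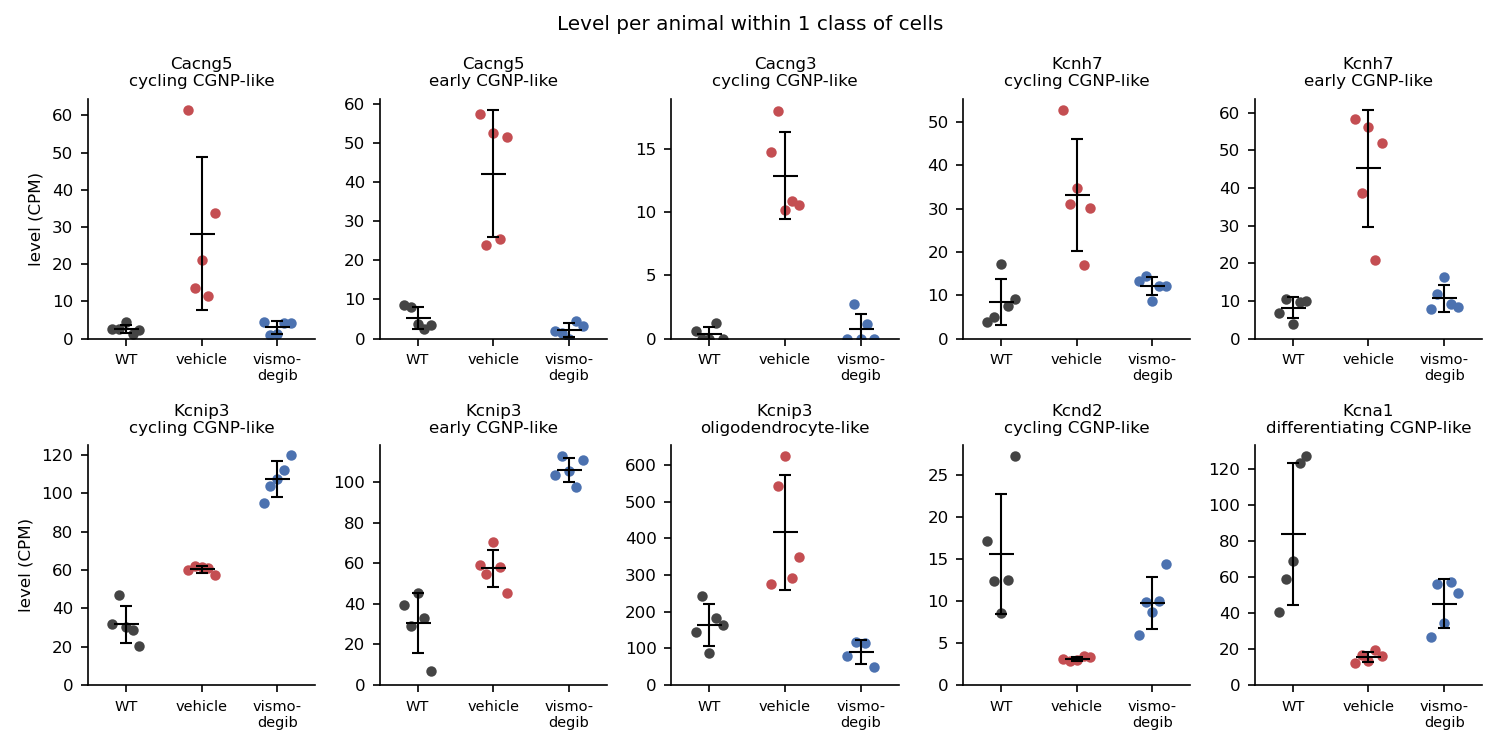
Levels per animal in CPM of the channel genes called within a stage between vismodegib-treated and vehicle-treated tumors, with WT cerebella beside them. Dots are animals and lines are means. In early cells Cacng5 was at 24 to 57.6 CPM under vehicle and at 0 to 4.6 CPM under vismodegib.

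The cells of a stage were not the same under both treatments by their own markers. The summed early list, which holds Gli1, Atoh1 and Ptch1, was at 4431 to 5284 CPM in cycling cells under vehicle and at 3369 to 4304 CPM under vismodegib, and the summed differentiating list was at 1886 to 2252 and 2800 to 3316 CPM in the same cells. In differentiating cells the early list was at 2675 to 3747 CPM under vehicle and 1499 to 1938 CPM under vismodegib, and the late list at 1108 to 1363 and 1560 to 1764 CPM. In early cells the early list overlapped, at 5649 to 6581 and 4772 to 5780 CPM, as did the cycling list, at 1730 to 2824 and 2594 to 4293 CPM. The differentiating list was at 1804 to 1878 CPM under vehicle and 1932 to 2370 CPM under vismodegib in early cells, and the late list at 560 to 892 and 479 to 547 CPM, both without overlap. In late cells the late list was at 3750 to 3891 CPM under vehicle and 4516 to 4940 CPM under vismodegib, and the early list at 794 to 1209 and 571 to 652 CPM, again without overlap. The neuron-like list was also apart in cycling cells, at 98.4 to 159 and 181 to 233 CPM, and in differentiating cells, at 308 to 400 and 410 to 610 CPM. Each stage of the tumors joined 2 or 3 clusters in shares that differed between treatments. The largest early cluster held 73.5% of early cells under vehicle and 50.8% under vismodegib, and the smaller of 2 late clusters 9.97 and 39.8% of late cells. In cycling cells the 3 clusters held 48.5, 37.0 and 14.5% under vehicle and 28.0, 36.5 and 35.6% under vismodegib. The part of these shifts in the calls of channel genes was not tested.

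Within late CGN-like cells no member passed the main test by edgeR or that by DESeq2. With the tumor division as a term, or the replicate number as a block, 1 of 32 was called, higher under vismodegib. The share of all genes in those fits is not given here. Without the filter on low counts 1 of 85 was called, where 0.216% of all genes were. At an unadjusted p under 0.05 there were 4 of 32 members, where 5.84% of all genes were. The largest difference was that of Cacna1g, at 56.4, 23.3, 77.4, 29 and 7.2 CPM under vehicle and at 124, 144, 102, 70.5 and 80.5 CPM under vismodegib (log2 fold change 1.46 ± 0.38, adjusted p = 0.368), and the ranges overlapped. The other 3 were Kcnmb4 (0.63), Cacna1d (0.69) and Cacng4 (-0.49). For the steeply rising potassium channels, the 95% interval of the log2 fold change in late cells was -0.16 to 0.53 for Kcna1, 0.01 to 0.95 for Kcnd2, -0.08 to 0.64 for Kcnk2 and -0.30 to 0.48 for Kcnc1. Each interval leaves out a change as large as the 1.55 of Kcna1 in differentiating cells.

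When all CGNP lineage-like cells were pooled, far more members differed between the treatments. Of 58 tested members 31 were called, 25 higher and 6 lower under vismodegib, against 12.6% of all genes (8.24% higher, 4.41% lower). The median log2 fold change was 0.49 over the members and 0.00 over all genes tested. The stage composition of the pool differed too. Late cells were 2.69 to 9.81% of lineage cells in vehicle-treated and 19.4 to 54.1% in vismodegib-treated tumors, and early cells were 30.8 to 49.2% and 10.1 to 25.7%.

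By family, 6 of 7 tested calcium channel alpha1 subunits, 2 of 3 alpha2delta subunits and 2 of 3 beta subunits rose in the pool, and none of these fell. Of 5 tested gamma subunits and TARPs none rose and 2 fell. All 3 tested leak channels rose, as did 5 of 15 voltage-gated potassium channel alpha subunits, of which 2 fell. Of the inward rectifiers 3 of 6 rose and 1 fell, of the calcium- or sodium-activated channels 2 of 6 rose and 1 fell, and 1 of 5 auxiliary potassium channel subunits rose. None of the 3 tested sodium channel alpha subunits was called, and 1 of 2 beta subunits rose.

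The 15 members with the smallest adjusted p in the pool were of both directions. Cacna1g rose from 2.40 ± 1.90 to 27.0 ± 7.28 CPM (log2 fold change 3.67 ± 0.44, adjusted p = 0.000267) and was higher in all 5 treated tumors, at 18.5 to 37 CPM, than in any vehicle-treated tumor, at 0.73 to 5.52 CPM. Kcnk2 rose from 22.5 ± 6.47 to 71.8 ± 13.1 CPM (log2 1.70), Kcna1 from 13.3 ± 4.32 to 72.2 ± 34.6 CPM (2.49) and Kcnd2 from 10.1 ± 4.83 to 65.8 ± 38.6 CPM (2.74). Further rises were those of Kcnq5 (2.08), a channel of the M current that restrains firing, of the calcium channel subunits Cacna2d2 (2.51), Cacna1e (2.15), Cacnb4 (1.33) and Cacnb3 (1.08), and of Kcnd3 (1.65), Kcnc1 (1.26) and Kcnip3 (0.58). The members that fell most were Cacng3 (8.47 ± 2.30 to 0.305 ± 0.370 CPM, log2 -4.54 ± 0.47, adjusted p = 0.000152), Cacng5 (28.2 ± 16.2 to 1.97 ± 1.32 CPM, -3.58 ± 0.48, adjusted p = 0.000447) and Kcnn4. Kcnn4 was at 15.4, 5.21, 5.77, 2.47 and 7.03 CPM under vehicle and at 0, 0, 0, 0.354 and 0.534 CPM under vismodegib (log2 -4.52 ± 0.65, adjusted p = 0.000643). It had no UMI in the WT lineage cells of any animal. Kcnn4 was not among the genes tested with thinned sums or without vehicle replicate 2 or 5. Its place in the test thus hung on the vehicle-treated tumors, where it was high.

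To weigh the stages alike, the same number of UMIs was drawn from each of the 4 stages of each tumor. Under this draw 0 of 38 tested members were called, where 0.825% of all genes were (81 of 9818). With as many UMIs drawn in the proportions found, 19 of 37 members were called, 18 higher and 1 lower, where 9.5% of all genes were (5.62% higher, 3.87% lower). With equal stages the log2 fold change of Cacna1g was 1.46 (adjusted p = 0.0939), of Kcnd2 0.53, of Kcna1 0.35 and of Kcnk2 0.31. Cacng3, Cacng5 and Kcnn4 had too few UMIs to be tested in the equal draw. Cacng3 and Kcnn4 were not tested in the draw with the stages as found either.

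**Figure D3:**
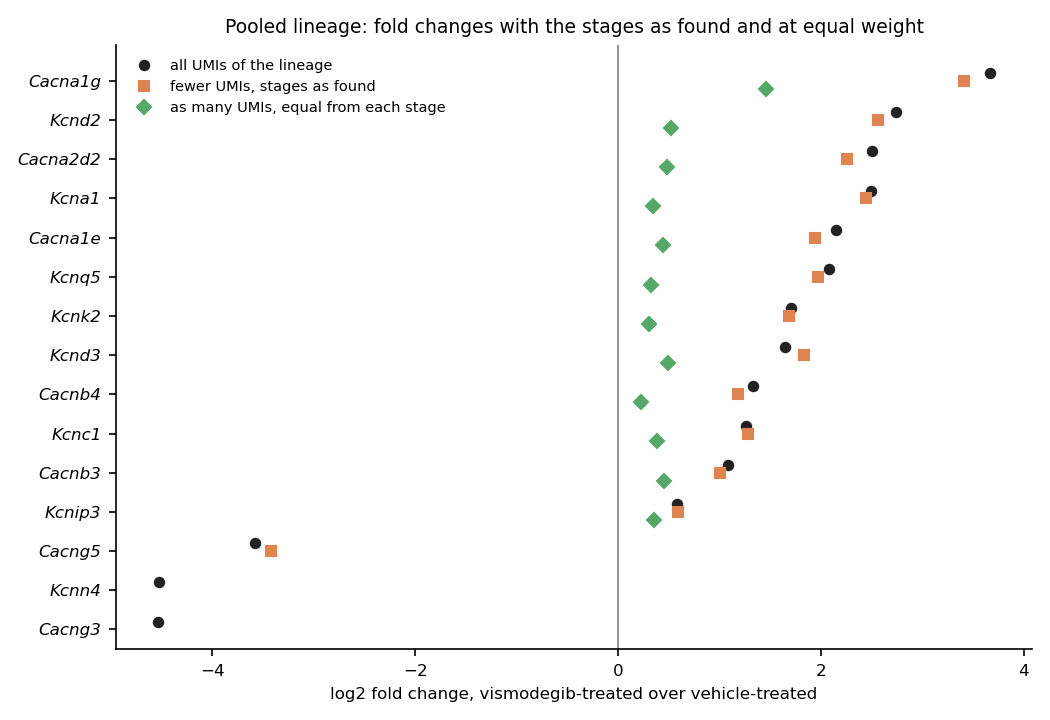
Log2 fold change of the pooled CGNP lineage-like cells, vismodegib-treated against vehicle-treated tumors, for the 15 channel genes with the smallest adjusted p. Marks stand for all UMIs, for fewer UMIs with the stages as found, and for equal numbers of UMIs from each stage. Kcna1 went from 2.49 with all UMIs to 0.35 with equal stages, and 3 genes could not be tested with equal stages.

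Whether the effect of vismodegib differed along the lineage was tested directly, as the effect in differentiating and late cells minus that in cycling and early cells, with the tumor as a block. Of 59 tested members 20 were called, 17 with the higher log2 fold change in the differentiating and late cells and 3 with the lower, against 24.2% of all genes (11.1% higher, 13.2% lower). The most certain was Kcnh7, with a difference of 1.69 ± 0.21 (adjusted p = 7.17e-07). Kcnh7 was at 55.9, 34.5, 43.4, 18.4 and 39.3 CPM in cycling and early cells under vehicle and at 11, 13.4, 11.4, 11.5 and 10.9 CPM under vismodegib. In differentiating and late cells the levels were 73.4, 32.7, 35.8, 36.9 and 43.3 CPM and 40.7, 49, 55.7, 35.5 and 42.7 CPM. The treatment groups were apart in the first pair and overlapped in the second. With equal UMIs from each stage the difference was 1.86 (adjusted p = 1.9e-05), and Kcnh7 was the 1 member of 38 still called, where 2.47% of all genes were. With the same number of UMIs and the stages as found 6 of 37 members were called, against 10.4% of all genes.

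Kcnip3 gave the opposite sign, -0.88 ± 0.13 (adjusted p = 9.05e-06). In differentiating and late cells it was at 111, 99.1, 79.1, 84.7 and 96.9 CPM under vehicle and at 93.7, 113, 89.6, 86.1 and 96.3 CPM under vismodegib, and these overlapped. The other negative values were those of Kcne1l (-1.01), which was -0.79 with thinned sums (adjusted p = 0.0895), and Kcng2 (-1.90), which was -1.22 with a finer clustering (adjusted p = 0.166). With equal UMIs from each stage Kcnip3 was at -0.59 and Kcne1l at -0.10 (adjusted p = 0.102 and 0.949). Positive values belonged to calcium channel genes such as the L-type channel Cacna1d (1.05), the P/Q-type channel Cacna1a (1.11) and Cacna2d3 (1.61), and to potassium channels such as Kcnma1 (1.83), which opens to calcium and voltage together, and Kcnc1 (0.75). With equal UMIs from each stage these were 0.73, 0.16, 0.19, 0.79 and 0.06 in that order. None was called there (adjusted p = 0.23 to 0.95). The later class pools differentiating with late cells in proportions that differ between treatments, as given above.

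The third question was how tumor cells differed from WT cells. In the pooled lineage 35 of 53 tested members were called between vehicle-treated tumors and WT cerebella, 16 higher and 19 lower in tumors, where 44.7% of all genes were called (21.3% higher, 23.4% lower). The share of members was above that of all genes. With equal UMIs from each stage 18 of 34 members were called, 9 in each direction, where 33.8% of all genes were (16.0% higher, 17.8% lower). With the same number of UMIs and the stages as found 24 of 31 were called, 8 higher and 16 lower. Of all genes 35.0% were called in that draw (16.4% higher, 18.6% lower). This comparison and that with vismodegib share the vehicle-treated tumors.

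Of the genes higher in tumors, Kcng2 stood furthest from WT. It had 353 UMIs in vehicle-treated tumors and 1 in WT lineage cells, a ratio of 94.7 with a 95% counting interval of 16.9 to 3750. In cycling cells it was at 14, 14.2, 14.4, 11.9 and 12.9 CPM in vehicle-treated tumors and had no UMI in WT, and was at least 15.3-fold higher with 3 UMIs over the group as the floor. Under vismodegib it was at 4.45, 4.51, 4.99, 10.7 and 18.2 CPM in cycling cells, with the higher values in replicates 4 and 5, and it fell in the pooled lineage (log2 -1.05, adjusted p = 0.0445). Cacng3 (log2 3.60 ± 0.45), Cacng5 (3.30 ± 0.46), Kcnj8 (3.09 ± 0.61), Kcnh5 (2.81 ± 0.47) and the inward rectifier Kcnj12 (2.31 ± 0.38) were also higher in the tumor lineage, with adjusted p = 2.02e-05, 4.7e-05, 0.000779, 0.00023 and 0.000196. In cycling cells Kcnj12 had 152 UMIs against 3 in WT, a ratio of 11.8 (3.97 to 58), and Cacng3 183 against 2, a ratio of 21.4 (5.83 to 178). In the pooled lineage none of these higher genes was tested with equal UMIs from each stage, or with as many UMIs and the stages as found. With thinned sums Kcng2, Cacng3, Kcnj8 and Kcnh5 were not tested there either. Whether these differences hold with the stages weighed alike was thus not tested.

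Lower in the tumor lineage were Cacna2d2 (log2 -3.13 ± 0.38), Kcnd2 (-2.27 ± 0.29), Kcna1 (-1.97 ± 0.32) and Kcnj6 (-1.79 ± 0.24), with adjusted p = 1.61e-05, 2.34e-05, 0.000173 and 3.01e-05. With equal UMIs from each stage the values were -1.65, -0.80, -0.58 and -1.70, and Kcna1 was no longer called (adjusted p = 0.0924). Late cells were 13.0 to 26.0% of the WT lineage and 2.69 to 9.81% of that of vehicle-treated tumors.

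Within stages, 20 of 32 tested members were called in cycling cells (13 higher, 7 lower in tumors), 11 of 22 in early cells (5 and 6), 20 of 29 in differentiating cells (8 and 12) and 9 of 26 in late cells (7 and 2). Of all genes 34.9% were called in cycling (16.9% higher, 18.0% lower), 36.6% in early (17.1% and 19.4%), 31.0% in differentiating (14.4% and 16.5%) and 26.6% in late cells (13.2% and 13.4%). Kcnd2 was lower in tumors in cycling cells (log2 -2.42 ± 0.36, adjusted p = 3.62e-05) and in differentiating cells, at 39.5 to 62 CPM in WT and 4.77 to 8.38 CPM under vehicle (-3.28 ± 0.29, adjusted p = 9.09e-08). In late cells its difference was -0.28 with a 95% interval of -0.74 to 0.18. Kcna1 was lower in differentiating cells (-2.55 ± 0.31, adjusted p = 4.15e-06), had an interval of -0.42 to 0.58 in late cells and was not tested in cycling cells. Kcnj6 was lower in late cells too, at 76 to 117 CPM in WT and 9.4 to 25.8 CPM under vehicle (-2.27 ± 0.32, adjusted p = 3.08e-06), and in early cells (-1.55 ± 0.32, adjusted p = 0.000873). Kcnd3 was lower in differentiating cells (-1.63, adjusted p = 0.00714), but without WT replicate 4 its value was -1.21 with an adjusted p of 0.0864. Cacnb3 was lower in early cells (-1.56, adjusted p = 0.00134).

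Several calcium channel genes were higher in the stages of the tumors, and others were lower. Lower were 1 beta subunit and 1 gamma subunit or TARP in cycling cells, and the same in early cells. In differentiating cells 1 alpha1 subunit, 1 beta subunit and 1 gamma subunit or TARP were lower, and in late cells 1 alpha2delta subunit. Cacna2d1 was higher in all 4 stages, with log2 fold changes of 1.57, 1.95, 1.12 and 1.33 from cycling to late cells. In the pooled lineage it was at 93.3 to 157 CPM in WT, and at 503 and 458 CPM in vehicle replicates 1 and 3 against 234 to 266 CPM in the other 3. Cacng5 was higher in cycling (3.43 ± 0.60, adjusted p = 0.000177) and early cells (2.86 ± 0.41, adjusted p = 3.1e-05), and Kcnh7 in early cells (2.29 ± 0.35, adjusted p = 5.98e-05). Kcnj12 was higher in differentiating cells (2.07 ± 0.47, adjusted p = 0.00222). It was not among the genes tested there with a finer clustering, with thinned sums, or without vehicle replicate 1, 2, 3 or 4. Its place in that test thus hung on the vehicle-treated tumors, where it was high. In late cells the P/Q-type channel Cacna1a was at 21.3 to 74.4 CPM in WT and 151 to 342 CPM under vehicle (1.84 ± 0.28, adjusted p = 6.66e-06). The N-type channel Cacna1b was at 21.3 to 81.2 and 148 to 301 CPM (1.49 ± 0.26, adjusted p = 4.87e-05), and Cacna2d3 at 7.84 to 20.3 and 52.3 to 108 CPM (2.46 ± 0.37, adjusted p = 6.66e-06). The summed late marker list was at 3862 to 5038 CPM in WT late cells and 3750 to 3891 CPM in those of vehicle-treated tumors, and the early list in late cells at 518 to 758 and 794 to 1209 CPM. In early cells the early list was at 2736 to 3505 CPM in WT and 5649 to 6581 CPM under vehicle, the differentiating list at 4121 to 4556 and 1804 to 1878 CPM, and the cycling list at 3439 to 5240 and 1730 to 2824 CPM. In differentiating cells the early list was at 798 to 1088 CPM in WT and 2675 to 3747 CPM under vehicle, and in cycling cells the early list was at 2192 to 2691 and 4431 to 5284 CPM and the differentiating list at 4588 to 5520 and 1886 to 2252 CPM. Except for the late list in late cells, these ranges did not overlap. The part of these marker levels in the differences from WT was not tested. In the main clustering 34 unipolar brush cell-like cells had been split off the WT late cells, while tumor late clusters were not split. With the finer clustering 434 of the 980 late WT cells fell in a unipolar brush cell-like cluster. The late differences were then 2.03 for Cacna1a, 1.34 for Cacna1b and 3.59 for Cacna2d3 (adjusted p = 5.6e-05, 0.00111 and 1.41e-06), and Kcnj6 was not tested.

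**Figure D4:**
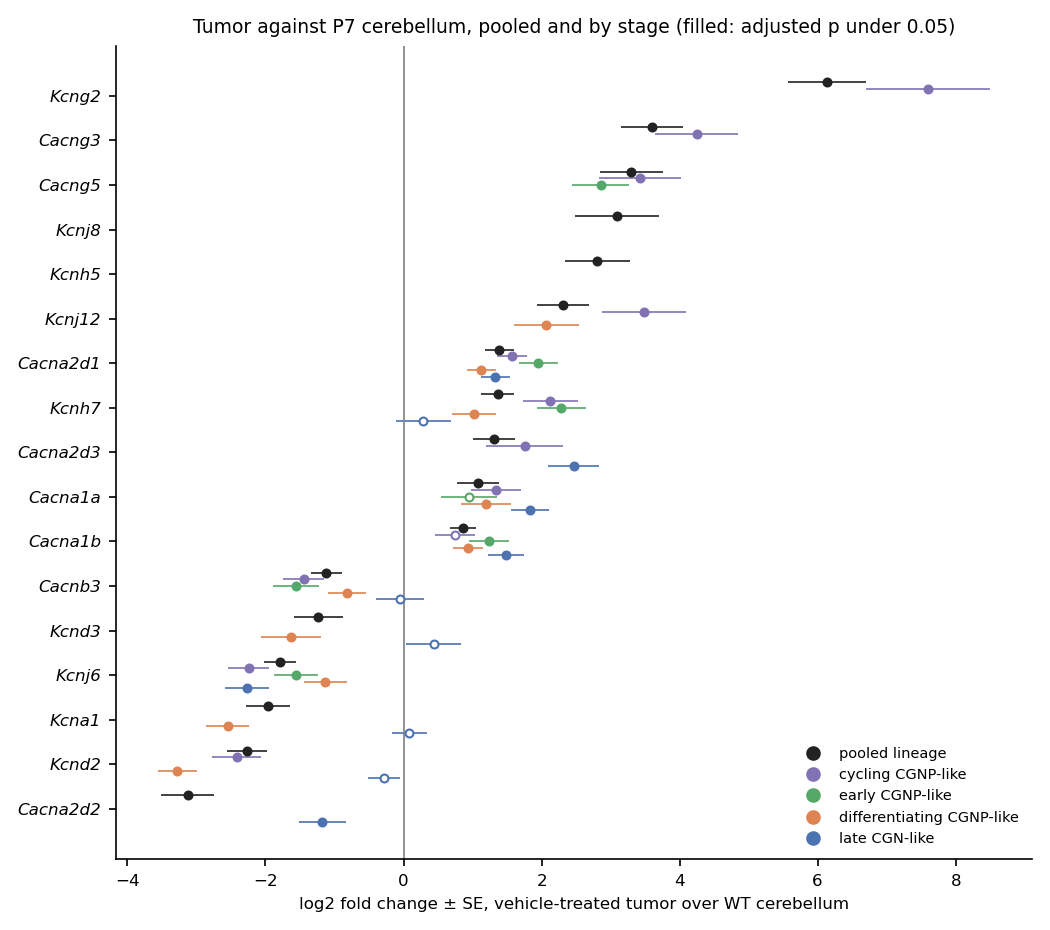
Log2 fold change ± SE of vehicle-treated tumors against WT cerebella, in the pooled CGNP lineage-like cells and in each stage. Filled points have an adjusted p under 0.05. Kcnd2 was lower in cycling (-2.42) and differentiating (-3.28) tumor cells, with -0.28 in late cells.

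Some channel genes were higher in the other cell types of these samples than in the lineage, where several of them, but not all, were sparse. Levels are set beside those of the CGNP lineage-like cells of the same group as a description. In WT cerebella, 22 of the 24 members with at least 20 UMIs in Purkinje-like cells were higher in each of the 3 animals with enough cells than in the lineage cells of the same animal, where 42.2% of all such genes were. Members of the other classes were counted in the same way. Because 20 UMIs in the class itself stand for 14.6 to 154 CPM in the classes described, a member enters more easily where it is high, and nothing is read from these counts or from the shares beside them. Among them were Kcnip1 (335 ± 101 CPM, 145-fold above the lineage), an auxiliary subunit of A-type channels, and Kcnip4 (125 ± 17.1 CPM, 44.8-fold). The summed member level of Purkinje-like cells was 5040 ± 95.7 CPM. GABAergic interneuron-like cells had 8 of 25 (17.9% of all genes), led by Cacna2d3 (58.8 ± 22.0 CPM, 12.6-fold), Scn3a (91.1 ± 21.8 CPM, 10.2-fold) and Cacna2d2 (58.1 ± 22.8 CPM, 3.32-fold). GABAergic progenitor-like cells had 5 of 15 (12.5%), led by the small-conductance channel Kcnn2 (35.0 ± 25.4 CPM, 9.66-fold), Cacng4 (156 ± 101 CPM, 4.42-fold) and the M current channel Kcnq3 (38.9 ± 12.1 CPM, 2.84-fold).

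Neuron-like cells of the tumors had the highest summed level of any class, 6164 ± 719 CPM under vehicle and 5997 ± 815 CPM under vismodegib, over 4 tumors each. The genes that led this cluster were Gabra6, which is on the late list, and Cbln3, both known from mature granule neurons, and its markers were on average 3.09 above other tumor cells on the log2 scale for the neuron-like list and 2.78 for the late CGN-like list. Whether these cells are the mature end of the granule lineage they are set against was not tested. Under vehicle, where 20 UMIs stand for 154 CPM, the members furthest above the lineage were the leak channel Kcnk3 (207 ± 107 CPM), the G protein-gated inward rectifier Kcnj9 (180 ± 103 CPM) and Kcnd2 (497 ± 59.4 CPM). Under vismodegib 18 of 31 members were higher than in the lineage (24.3% of all genes), among them Kcnk12 (86.9 ± 31.4 CPM) and Kcnk3 (137 ± 44.2 CPM).

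Astrocyte-like cells were marked in all groups by Kcnj10 and Kcnj16, the inward rectifiers that pair in glia to buffer potassium. In WT, 8 of 19 members were higher than in the lineage (24.4% of all genes), with Kcnj10 at 108 ± 51.0 CPM, Kcnj16 at 46.4 ± 30.7 CPM and Cacng5 at 80.2 ± 24.7 CPM, 36.7-fold, 43.6-fold and 30.3-fold above the lineage. Under vehicle 9 of 16 were (21.5%), with Kcnj10 at 330, 1686, 740 and 838 CPM in the 4 tumors with at least 10 such cells, Kcnj16 at 158 ± 89.6 CPM and Kcnn2 at 105 ± 55.7 CPM. Under vismodegib 10 of 34 were (21.3%), with Kcnj10 at 439 to 1140 CPM, Kcnj16 at 101 ± 33.1 CPM and Cacng5 at 104 ± 87.3 CPM. The Kcnj10 ranges of the treatments overlapped. Between the treatments 0 of 8 tested members were called in these cells by edgeR and 0 of 6 by DESeq2, against 1.35% of all genes by edgeR (1.04% higher, 0.304% lower), and 2 had an unadjusted p under 0.05, Kcnip3 (log2 -0.64) and Kcnj16 (-0.75), where 14.9% of all genes did. The tumor cells of this class also carried ependymal or choroid markers, whose summed list was at 110 to 256 CPM in WT, 62.2 to 5427 CPM (median 304) under vehicle and 93.4 to 24410 CPM (median 7357) under vismodegib. With the finer clustering at a resolution of 1.2, tumors had 382 astrocyte-like cells in place of 661 and a separate ependymal or choroid-like cluster of 416 cells. The part of these cells in the levels of the astrocyte-like class was not tested.

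Oligodendrocyte-like cells were led by Kcnj10 and Cacng4 in WT (7 of 11 members higher than in the lineage, 22.3% of all genes), with Cacng4 at 333 ± 84.1 CPM and Kcnj10 at 76.6 ± 37.4 CPM. Scn3a, at 59.4 ± 51.9 CPM, was 6.66-fold above the lineage. Under vehicle 18 of 33 were higher (24.9%), led by Kcnip1 (38.7 ± 14.2 CPM), Kcnj16 (59.7 ± 39.8 CPM) and Kcnj10 (259 ± 77.5 CPM). Under vismodegib 5 of 13 were (23.1%), led by Kcnj10 (356 ± 134 CPM), Cacng4 (687 ± 282 CPM) and Scn3a (65.0 ± 30.1 CPM). Between the treatments, over 5 vehicle-treated and 4 vismodegib-treated tumors, 2 of 7 tested members were called, 1 higher and 1 lower, against 3.99% of all genes (2.71% higher, 1.28% lower). DESeq2 called 3 of 7, 1 higher and 2 lower. With the tumor division as a term edgeR called 4 of 7, 1 higher and 3 lower. The share of all genes in these 2 fits is not given here. Kcnip3 was at 274, 542, 625, 292 and 348 CPM under vehicle and at 78.6, 118, 113 and 50.3 CPM under vismodegib, without overlap (log2 -2.16 ± 0.35, adjusted p = 0.00261). Its sign was opposite to that in cycling and early CGNP-like cells. Kcna1 was at 38.7 to 178 CPM under vehicle and 82.4 to 441 CPM under vismodegib (1.70 ± 0.47, adjusted p = 0.0452). The Kcna1 ranges overlapped, and the call was lost without vehicle replicate 2, 3, 4 or 5 and without vismodegib replicate 1, 2 or 5, each left out in turn (adjusted p = 0.0769 to 0.303). Cacng4 was at 1182 to 1824 and 298 to 970 CPM (-1.01 ± 0.31, adjusted p = 0.0792) and did not pass the main test by edgeR although the ranges were apart.

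The makeup of the oligodendrocyte-like cells moved with the treatment. Pdgfra, the receptor of oligodendrocyte progenitors, was at 988 ± 261 CPM under vehicle and 293 ± 62.5 CPM under vismodegib (n = 4). The myelin gene Mag was at 329 and 2255 CPM, and the summed list at 8097 to 28166 and 27607 to 88274 CPM. The part of this shift in the Kcnip3 and Kcna1 values was not tested.

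In microglia-like cells the leak channels Kcnk6 and Kcnk13 led under vehicle, at 76.1 ± 31.8 CPM and 45.7 ± 21.6 CPM over 4 tumors (2 of 5 members higher than in the lineage, 27.2% of all genes). Under vismodegib Kcnk6 was at 73.3 ± 34.3 CPM and the inward rectifier Kcnj2 at 24.8 ± 13.9 CPM (4 of 12, 24.9%). In WT endothelial-like cells the single member with at least 20 UMIs was Kcnj8, at 362, 292 and 127 CPM in the 3 animals with enough cells, against 7 UMIs in all WT lineage cells (44.0% of all genes higher). Vascular fibroblast-like cells had 0 of 1 in WT (27.5%), 1 of 3 under vehicle (28.3%), which was Kcnk2 at 78.8 ± 24.4 CPM over 4 tumors, and 0 of 4 under vismodegib (22.7%).

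**Figure D5:**
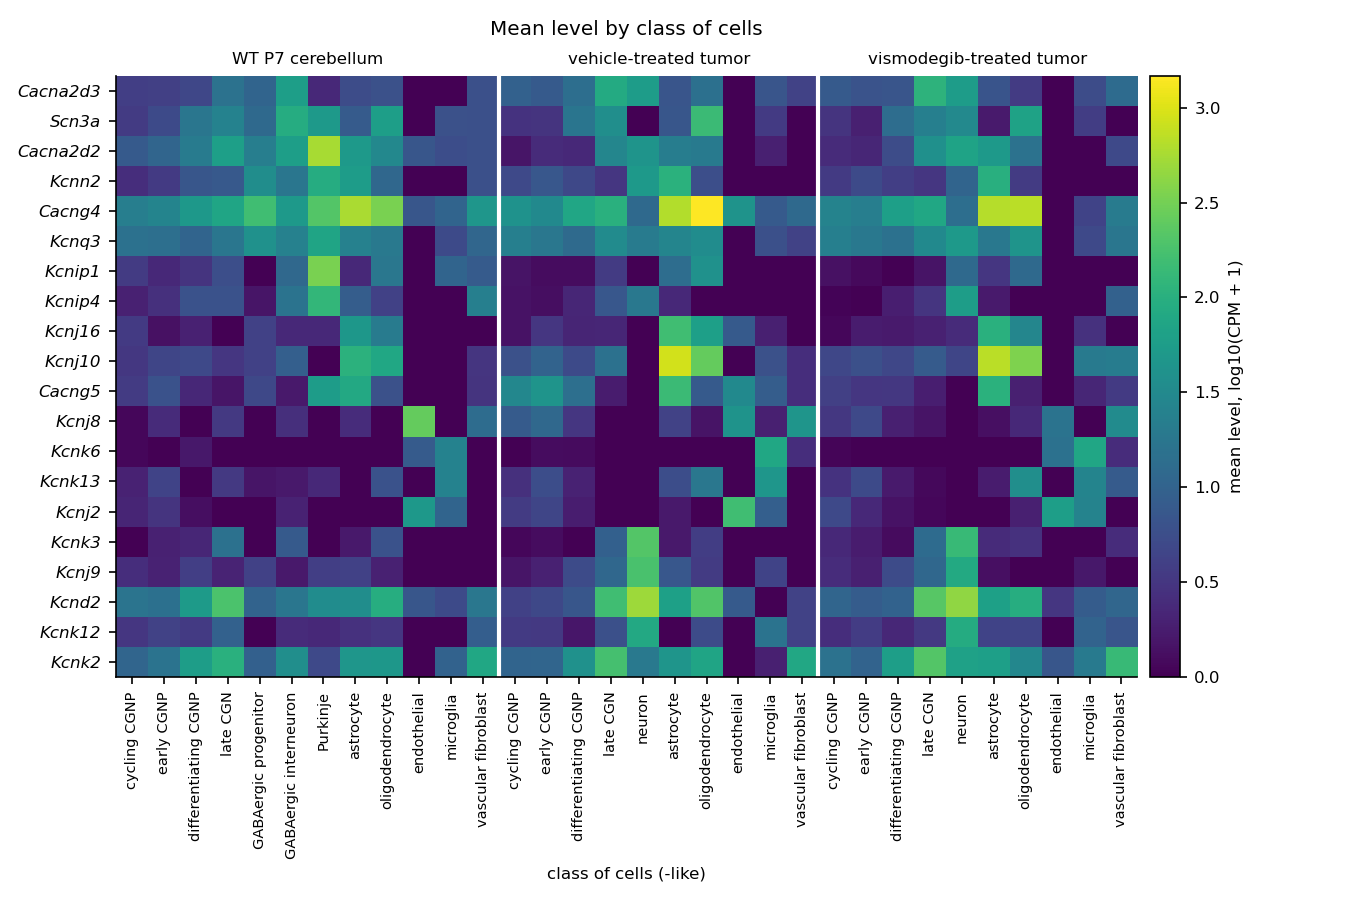
Levels of 20 channel genes by cell class and group, coloured by log10(CPM + 1) of the mean over animals. Kcnj10 and Kcnj16 stand out in astrocyte-like cells, with Kcnj10 at 898 CPM under vehicle, Kcnip1 in Purkinje-like cells at 335 CPM and Kcnj8 in WT endothelial-like cells at 260 CPM.

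A list of 25 partners, proteins that carry, anchor or modify channels but fall outside the families, was counted beside the members. Of 22 tested in the pooled lineage, 9 rose and 1 fell under vismodegib, against 8.24% higher and 4.41% lower of all genes. With equal UMIs from each stage 0 of 19 tested partners were called, and with the same number of UMIs and the stages as found 6 of 15 were higher and 1 lower. Dpp6, an auxiliary protein of A-type channels, went from 12.5 ± 2.92 to 53.6 ± 30.3 CPM (log2 2.15 ± 0.35, adjusted p = 0.00127), and Lgi1, which binds channel complexes at synapses, from 1.82 ± 0.684 to 14.7 ± 5.40 CPM (3.08 ± 0.37, adjusted p = 0.000253). Nalcn, the sodium leak channel that sets the resting potential, was the partner that fell, in the pool (-0.91 ± 0.24, adjusted p = 0.0238) and in cycling cells, from 47.6 ± 18.6 to 13.3 ± 3.94 CPM (-1.86 ± 0.30, adjusted p = 0.0027), and early cells, from 54.2 ± 22.1 to 15.6 ± 4.62 CPM (-1.72 ± 0.30, adjusted p = 0.00396). Against WT it was higher in tumors, by 3.13 in cycling and 3.72 in early cells. In late cells 0 of 14 tested partners were called between the treatments. Scn2a1, in the pooled lineage, went from 8.08 ± 3.38 to 27.7 ± 4.67 CPM (1.83 ± 0.28, adjusted p = 0.000851), and in late cells its log2 fold change was 0.05 (adjusted p = 0.999).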

How the data were processed

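Drop-seq libraries of 5 WT cerebella, 5 vehicle-treated and 5 vismodegib-treated tumors were analysed from the deposited counts. The authors made these UMI counts per gene and barcode with Drop-seq Tools and STAR on mouse build mm10 with the transgene sequences added, and kept tumor barcodes by their mouse share against human HEK293 cells. The labels also list Seurat 2.3.0, bcl2fastq 2.18 and hg19. The version of the gene annotation was not given in the sources. Nothing says that counts were normalized, and the values were whole numbers.

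A barcode was kept as a cell from 500 UMIs and 500 genes up, unless it exceeded its library's median by over 5 SD, and no doublet caller was run. The median of 1082.5 to 2597 UMIs per cell means that a gene may be expressed in cells where it was not captured. Tumor cells (30722) and WT cells (7224) were clustered separately at a resolution of 0.8, with all channel genes held out. The settings were taken from the study's rules and run in Python 3.11.15 with scikit-learn 1.9.0 and igraph 0.11.9. The paper also rejected a component that marked batch effects and removed clusters read as doublets. Neither step was taken here. In a further step that the paper does not describe, the vascular tumor cluster and the late and vascular WT clusters were clustered again. This took 34 unipolar brush cell-like cells out of the WT late class. The late clusters of tumors were not clustered again. Clusters were named "-like" from marker lists, with at least 3 detected markers and hemoglobin genes left out. The naming rule was settled after the clusters were seen. The channel genes, the lists and the tests were chosen with earlier results of these data known.

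UMIs were summed per animal and class, with at least 10 cells per animal. Vehicle replicate 3 had too few astrocyte-like cells and vismodegib replicate 3 too few oligodendrocyte-like cells and were left out there. The tests used edgeR 4.0.16 in R 4.3.3 (TMM, filterByExpr, quasi-likelihood test, Benjamini-Hochberg over all genes, adjusted p under 0.05), and with DESeq2 1.42.0 as another tool. SEs are on the log2 scale and 95% intervals are 1.96 SE, which is narrower than the quasi-likelihood test with few animals would give. Counting intervals are exact, and the floor is 3 UMIs. Levels by class carry no test. In a comparison of treatments, called members were named up to the 15 with the smallest adjusted p. Against WT, the 10 with the largest change in the pooled lineage and the 5 of each stage were named. For other cell types up to 3 members with at least 20 UMIs were named, for the stages up to 12 with at least 200 UMIs, and of each subfamily the one with most UMIs. Members named outside this rule, such as those lower in late cells, were chosen after their values were seen. Alternatives were DESeq2, other size factors, no filter, a 4 SD limit, thinned sums, a resolution of 1.2, a replicate block, leaving out each animal, the tumor division as a term and, added after seeing the data, the draws of UMIs by stage and the placing of the unnamed cluster. Results of a few genes that this rule would name are not reported here.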

Additional observations from a re-analysis of the deposited data

Results flagged for a closer look

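In 20 of 59 tested members the log2 change between treatments differed between stages, at edgeR's adjusted p under 0.05. Of all genes 24.2% were called (11.1% higher, 13.2% lower). The difference tested was the log2 change in differentiating and late cells minus that in cycling and early cells, with the tumor as a block. The later class pools differentiating with late cells in proportions that differ between treatments. The difference was negative for Kcnip3 (-0.88), Kcne1l (-1.01) and Kcng2 (-1.90). It was positive for the calcium channel genes Cacna1d (1.055), Cacna1a (1.11), Cacna2d3 (1.61), Cacnb4 (0.87), Cacna2d1 (0.27) and Cacna2d2 (1.76). Among potassium channels it was positive for Kcnh7 (1.69), Kcnma1 (1.83), Kcnc1 (0.75), Kcnk2 (0.79), Kcnmb4 (0.66), Kcnq3 (0.94), Kcnd2 (0.905), Kcnd3 (0.94) and the sodium-activated Kcnt1 (2.11). The sodium channel genes were Scn1a (2.15) and Scn2b (1.08). With equal UMIs from each stage 1 of 38 tested members, Kcnh7, was called, where 2.47% of all genes were, and with the same number of UMIs and the stages as found 6 of 37 were, where 10.4% of all genes were.

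In 6 of 115 groups of 4 or 5 animals, 1 animal stood apart from the others by Dixon's test, which chance does in about 1 in 20 groups. These were Kcnd3 in the pooled lineage of vismodegib replicate 4 (14.5 CPM), Kcna1 in oligodendrocyte-like cells of vehicle replicate 1 (178 CPM), and Cacna2d2 in the pooled lineage of WT replicate 2 (30.8 CPM). The others were Cacna1b in late cells of WT replicate 3 (21.3 CPM), Kcng2 in the pooled lineage of WT replicate 1 (0.314 CPM) and Kcnj12 in cycling cells of WT replicate 4 (2.51 CPM). The last 2 rest on 1 and 2 UMIs.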

How the results depend on the processing

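Of the 73 calls chosen by the rule for named genes, 41 kept their direction and their side of the threshold under each alternative that could test them, and 32 of these 41 were not tested under at least 1 alternative. None reversed, and 4 were lost by leaving out 1 animal (Kcnj6 in cycling, Kcna1 in oligodendrocyte-like, Kcnc1 in differentiating cells, and Kcnd3 of differentiating cells against WT). Members with few UMIs cannot show small changes at this depth. Equal UMIs from each stage left 0 of 38 members called between treatments in the pooled lineage. They left 18 of 34 against WT and 1 of 38 in the difference between stages. The same number of UMIs with stages as found left 19 of 37, 24 of 31 and 6 of 37. Of all genes 0.825, 33.8 and 2.47% were called with equal stages, and 9.5, 35.0 and 10.4% with stages as found. Thinned to the smallest sum, the treatments differed in 2 of 18 tested members in cycling and 1 of 16 in early cells. The counts were 1 of 23 in differentiating and 0 of 2 in oligodendrocyte-like cells. Against WT thinning left 22 of 30 in the pooled lineage, 5 of 6 in cycling and 5 of 11 in early cells. It left 7 of 12 in differentiating and 2 of 10 in late cells, and 9 of 39 in the difference between stages. Thinning leaves fewer UMIs by construction, and fewer members could then be tested. Without the filter on low counts there were 5 of 86 members in early, 1 of 85 in late and 1 of 87 in astrocyte-like cells between treatments (2.73, 0.216 and 0.614% of all genes), and 35 of 87 in cycling and 33 of 88 in early cells against WT (24.7 and 25.9% of all genes). A clustering resolution of 1.2 gave 1 of 35 members in differentiating cells between treatments (0.947% of all genes), and 17 of 24 in early and 5 of 16 in late cells against WT (35.2 and 26.4%). The tumor division as a term gave 1 of 32 members in late and 4 of 7 in oligodendrocyte-like cells. No share of all genes is given for the thinned sums or this term, and nothing is read from their counts. The cause of these moves was not tested.

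Leaving out each animal in turn gave, between treatments, 23 to 33 members in the pooled lineage, 4 to 7 in cycling, 3 to 4 in early, 1 to 2 in differentiating, 0 in late, 0 in astrocyte-like and 1 to 2 in oligodendrocyte-like cells. Against WT it gave 33 to 39, 19 to 23, 12 to 14, 15 to 20 and 8 to 12 members from the pooled lineage to late cells, and 15 to 22 in the difference between stages. The number of members tested changed with the animal left out. No share of all genes is given beside these ranges, and nothing is read from them about the members.

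With the replicate number as a block, the treatments differed in 30 of 58 tested members in the pooled lineage. The counts were 6 of 35 in cycling, 3 of 23 in early, 2 of 36 in differentiating and 1 of 32 in late cells. They were 0 of 8 in astrocyte-like and 2 of 7 in oligodendrocyte-like cells. Against WT the block gave 31 of 53, 18 of 32, 12 of 22, 16 of 29 and 10 of 26 members. No share of all genes is given beside these counts, and nothing is read from them. The labels do not pair animals by number. Deviations of same-numbered vehicle-treated and vismodegib-treated tumors correlated at -0.145 to 0.3872 across genes, those of WT and vehicle-treated animals at -0.1934 to 0.0023, and not every sample correlated best with its own number.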
